A study of Vitis vinifera with 6 samples.

Results

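The transcripts described here belong to 111 gene models that lie in 9 runs of neighbouring models on 6 chromosomes of the grapevine, Vitis vinifera. The runs were chosen by measured values, the difference between UV-C and dark berry skin in these same arrays, and the members are all probe sets whose running numbers fall within fixed stretches of an annotation block. They number 111 of the 29549 probe sets measured. The 9 runs span 120 running numbers, of which 9 carry no probe set on the array, and they lie in 7 blocks, 3 of them in block 8 of chromosome 4. Because the same difference chose the members, their number of rises and the size of the rises are given as a description, with no test, and support nothing beyond it.

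Pinot Noir clusters were placed for 1 hour at 50 cm from a UV-C lamp with a wavelength of 253.7 nm, and control clusters stood beside them under a box that kept them dark. Skin RNA of 3 UV clusters and 3 dark clusters, described as wild type and as separate clusters harvested in the vineyard, was hybridised to 1 one-colour array each, and the labels name no further agent or allele. Median intensity lay between 8967 and 11200 units over the 6 arrays, and the background limit, set at the mean plus 2 SD of random-sequence probes, lay between 1156 and 1434 units. The image identifiers place the dark arrays side by side and the UV arrays after them, so array position and treatment cannot be told apart. The identifiers on the array are not paired with gene names, and 0 of the 111 matched the reference gene table, so members are called by chromosome, annotation block and running number, taken here as their order along the block, and the skin identity of the samples was not checked by marker genes.

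UV-C is the short-wave part of ultraviolet light and is absorbed by DNA, proteins and phenolic compounds. Berry skin is the tissue that meets this light first, and grape skin is known for answering UV and wounding with stilbenes and flavonoids, compounds made from phenylalanine. Plant genomes hold many tandem arrays, in which copies of a gene made by local duplication stand side by side and often respond together, and array probes can pick up signal from a near-identical copy. Whether the probes of neighbouring members shared signal was not tested.

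Of the 111 members, 95 were called higher after UV, 1 was called lower and 15 were not called (limma, Benjamini-Hochberg threshold of 0.05). Over the whole array 15.8% of probe sets were called higher and 20.9% lower. Members higher by over 1 on the log2 scale, that is over 2-fold, numbered 28 (25.2%), against 5.05% of all probe sets. Among all sets called higher the share was 32.0%. On normalized values, all 3 UV arrays lay above all 3 dark arrays for 96 members, and for 22.4% of all probe sets. The members' median log2 change was 0.69, or 1.61-fold, where the median of all probe sets was -0.05. That of all sets called higher was 0.67. On the 3 UV arrays taken singly, each against the dark mean, the median over members was 0.76, 0.64 and 0.59 for replicates 1, 2 and 3, a mean of 0.66 ± 0.083 (SD, n = 3). Since the runs were selected on these calls, the distance between the members and the whole array follows from the choice. In whole skin, a difference in the cells sampled and a difference in RNA per cell cannot be told apart.

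The run medians lay within a narrow band, while single members ranged from a log2 change of -0.55 to 3.93. In order of fitted values, the medians were 0.92 for chromosome 1, 0.86 for chromosome 8 and 0.84 for chromosome 19. The last run of block 8 on chromosome 4 followed with 0.81, its middle run with 0.75, block 50 of chromosome 16 with 0.72 and chromosome 5 with 0.70. Block 39 of chromosome 16, at 0.56, and the first run of block 8 on chromosome 4, at 0.55, closed the order. This order depends on dim members: with bounds for members at background in the dark, and without those at background throughout, the median was 0.59 for chromosome 1, 0.69 for chromosome 19 and 0.94 for block 50 of chromosome 16. Every step between neighbours in the order of fitted values was smaller than the SD over the UV arrays of at least 1 of the pair. Chromosome 1, with most members near background, had the largest such SD, 0.40, and the 2 runs with the lowest fitted medians had the smallest, 0.039 and 0.049. The runs were chosen for moderate rises, so the size and the narrow band of their medians follow from the choice. Single members went beyond it: 11 of the 111 were called higher with a log2 change over 2. On the whole array 500 of 29549 probe sets did so, all among the 4656 called higher. The 11 members came from 4 of the runs, 5 of them from chromosome 8. Of these 11, 6 stayed over 2 in every alternative in which they were tested, and the other 5 fell to 2 or below in at least 1, down to 1.66 for model 232 on chromosome 8.

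**Figure D1:**
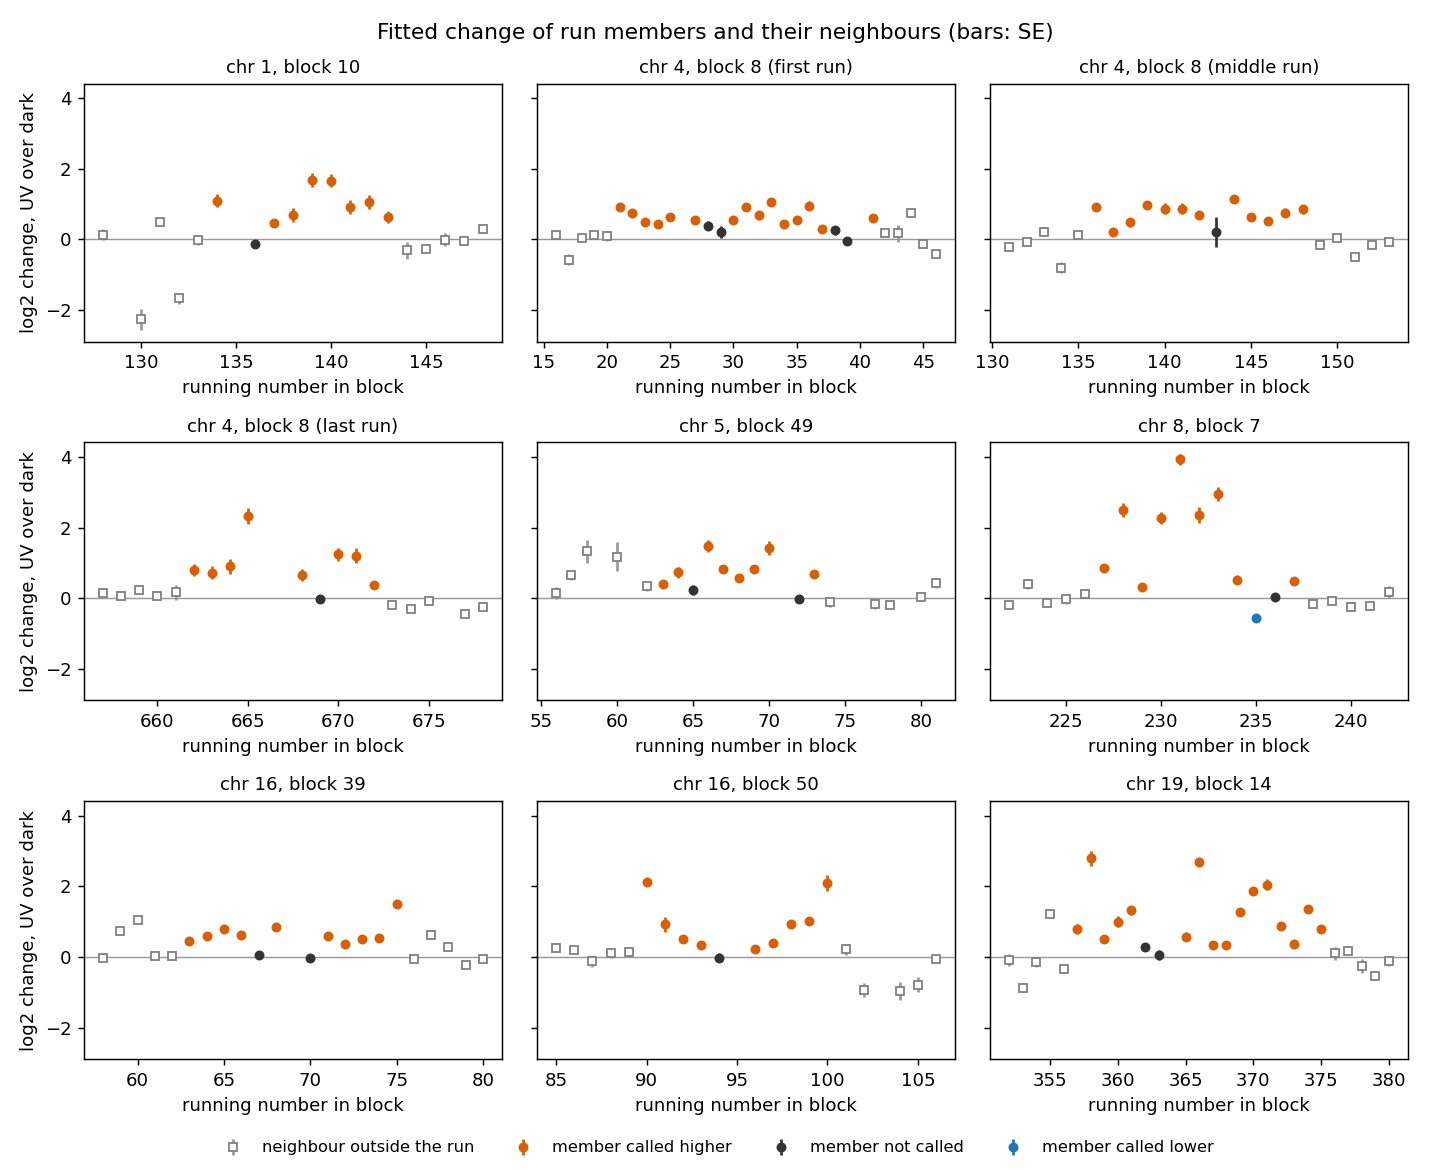
Fitted log2 change of each member (y axis, UV over dark, bars are standard errors) against its running number in the block (x axis), one panel per run, with the 5 nearest models on each side as open squares. Members called higher are orange, the member called lower is blue and members not called are black; the 5 rises over 2 on chromosome 8 stand out, while the first 2 runs of block 8 on chromosome 4 stay at or below 1.14.

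Each run began and ended with a member called higher, and the next model outside was lower, which follows from choosing the runs by these differences. The first and last members had log2 changes between 0.38 and 2.13, and the models next to them outside had values between -0.34 and 0.34. Over the 5 nearest models on each side, 90 in all, 9 were called higher (10%), 17 lower (18.9%) and 64 not, with a median log2 change of -0.03. Neighbours were called in both directions, and the share called lower was near the 20.9% of the whole array. Just before the run on chromosome 1, model 130 averaged 38629 units in the dark and 8486 units after UV, and model 132 averaged 32808 and 10249 units. Beyond the run in block 50 of chromosome 16, models 102, 104 and 105 had log2 changes of -0.94, -0.95 and -0.78. Called rises also stood beside runs, with 0.72, 1.05 and 0.62 for models 59, 60 and 77 of block 39 on chromosome 16. Model 58 on chromosome 5 rose by 1.33 and model 355 on chromosome 19 by 1.23. Elsewhere in the 7 blocks, the share of models called higher lay between 13.3% and 19.5%, around the 15.8% of the whole array.

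The run on chromosome 8, from CHR8_JGVV7_227_T01 to CHR8_JGVV7_237_T01, held the members with the largest changes. All of its 11 running numbers had a probe set. Among them 9 rose, 5 of these by over 1 and the same 5 by over 2, while model 235 fell and model 236 was not called. Model 231 read 1959, 1996 and 2047 units on the dark arrays and 24403, 19525 and 17497 units on the UV arrays, so every UV array exceeded every dark array several times over. Its fitted log2 change was 3.93 (SE 0.15), or 15.2-fold, and it ran from 3.41 to 4.21 over the alternative settings. Model 233 went from 4713 ± 1354 to 29798 ± 4875 units (SD, n = 3 each), a log2 change of 2.95.

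Around these, models 228, 230 and 232 rose by 2.50, 2.27 and 2.35 on the log2 scale. The dark level of model 232 was above the background limit on 1 of 3 dark arrays, and its change ran from 1.66 to 2.83 over the alternative settings. Model 230 read 1534, 1534 and 1898 units in the dark, where the limits were 1419, 1296 and 1434 units. Its change ran from 1.69 to 2.61. Model 229, wedged between 2 of the large rises, read 1424, 1352 and 1552 units in the dark and 1429, 1551 and 1402 units after UV. Its deposited intensities overlapped between the groups, its fitted change was 0.31, and it was called in 3 of 13 alternatives. The only member of any run that was called lower was model 235, with 11006, 8622 and 9876 units in the dark and 5123, 6998 and 6583 units after UV, every UV value lying below every dark value. Its log2 change was -0.55 (SE 0.10), and it stood next to model 234, which rose by 0.53. The run thus held a stretch of large changes from model 228 to 233, broken by model 229, and smaller ones in both directions after it. With all 11 members kept, its median ran from 0.65 without background correction to 1.00 with the random-probe mean subtracted. Among the 8 members above the 25th percentile of brightness it was 1.40. The runs on chromosomes 1 and 19 moved more with all members kept. Without background correction their medians were 0.58 and 0.59, and with the random-probe mean subtracted both were 1.24.

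On chromosome 19, the run from CHR19_JGVV14_357_T01 to CHR19_JGVV14_375_T01 held 18 members, of which 16 rose, 8 by over 1 and 3 by over 2. Model 358 showed 1507, 1481 and 2030 units in the dark and 8718, 6601 and 6166 units after UV. Its log2 change was 2.79 (SE 0.22), or 6.91-fold, between 2.16 and 3.16 over the settings. Model 366 gave a change of nearly the same size with less spread, from 2617 ± 222 to 12424 ± 554 units (SD, n = 3 each), a log2 change of 2.68 (SE 0.074). These 2 stood apart from each other, with members of smaller change between them.

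Further along, models 369, 370 and 371 rose in a row by 1.26, 1.88 and 2.04 on the log2 scale, from dark means of 6600, 5573 and 4182 units. Model 370 averaged 17414 ± 493 units after UV (SD, n = 3), a narrow spread for a 3.68-fold change. The 2 members not called stood side by side, and both were well above background. Model 363 read 5620, 3885 and 4948 units in the dark and 4769, 4900 and 3759 units after UV, with overlapping groups and a log2 change of 0.06. Model 362 had a change of 0.30, and its normalized UV values lay above its dark values without passing the test. Dim members bounded the other side: model 360 was at background on all dark arrays and above it on all UV arrays, at least 1.40-fold higher on the normalized scale, with unscaled deposited means of 1270 and 1725 units. The last member was at background in the dark and above the limit on 2 of 3 UV arrays, and its bound was at least 1.06-fold. Without background correction the median of this run was 0.59, and with the random-probe mean subtracted 1.24.

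In block 50 of chromosome 16, models 90 to 100, the largest changes sat at the 2 ends. Of the 10 members 9 rose and model 94 was not called. Model 90 read 7336, 5843 and 6357 units in the dark and 27844, 25557 and 20833 units after UV, a log2 change of 2.13 (SE 0.12), or 4.38-fold. Model 100, at the other end, went from 5722 ± 1044 to 21487 ± 7176 units (SD, n = 3 each), with the highest value, 29706 units, on UV replicate 1, and a log2 change of 2.10. Next to it, models 98 and 99 rose by 0.94 and 1.02 from dark means of 23248 and 18692 units.

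The middle of the same run was dark on the array. Models 92, 93 and 94 were not above the background limit on any of the 6 arrays, so no fold is given for them. Model 94 read 1056, 929 and 1009 units in the dark and 812, 1003 and 854 units after UV, with overlapping groups. Model 93 was called higher although its deposited intensities were 897, 764 and 847 units in the dark and 796, 850 and 786 units after UV. It was called in 2 of 12 alternatives, against 11 of 12 for model 92. Among the 7 members that gave a measured change, the median was 0.94 against 0.72 over all 10. Without dark replicate 2 the members called higher numbered 5, and without scaling between arrays also 5.

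The last run of block 8 on chromosome 4, from CHR4_JGVV8_662_T01 to CHR4_JGVV8_672_T01, lay wholly above background. It had 9 members for 11 running numbers, with 8 rises, 3 of them over 1. Model 665 stood out with 5112, 7045 and 6514 units in the dark and 31676, 22186 and 26592 units after UV, a log2 change of 2.32 (SE 0.22), or 4.99-fold. Models 670 and 671 followed with 1.25 and 1.21. Between them and the others stood model 669, at 29330, 25547 and 28116 units in the dark and 26774, 25752 and 25572 units after UV, with overlapping groups and a log2 change of -0.02 (SE 0.055). A bright probe set without a call therefore lay inside the run, with called members on both sides.

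Members of this run also differed among the dark arrays in the same way. For 6 of the 9, the deposited dark intensity was lowest on replicate 1 and highest on replicate 3. This order was not a planned measure, and it was found in 5.22% of all probe sets and 15.3% of the 111 members. Deposited values are unscaled, and the array medians were 11200, 9155 and 10658 units on dark replicates 1, 2 and 3. The share over all probe sets therefore also carries the brightness of the arrays. On normalized values, the median over the run was -0.38 on dark replicate 1 and 0.22 on dark replicate 3, each as a log2 difference from the dark mean. On the UV arrays the same run was lowest on replicate 1, at 0.66, and highest on replicate 3, at 0.98. Without dark replicate 1 its median was 0.63, and without UV replicate 2 or UV replicate 3 the members called higher numbered 5 of 9.

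The first run of block 8, models 21 to 41, was the longest, with 19 members, 15 of which rose. Only model 33 rose by over 1, from 7874, 8176 and 8891 units to 15717, 15317 and 15040 units, a log2 change of 1.07 (SE 0.10), or 2.10-fold. Of the 15, 14 were above background on all arrays, with dark means from 8246 to 40486 units, and without model 33 their changes lay between 0.29 and 0.92. For model 39 the values were 53273, 49781 and 55246 units in the dark and 51420, 50118 and 51336 units after UV, with a log2 change of -0.04 (SE 0.058). It was the brightest member of any run in the dark. Models 29 and 38 were also not called, with changes of 0.21 and 0.26, nor was model 28, which was above the background limit on 1 of 3 dark and 2 of 3 UV arrays. Model 36 was called, but its intensity was below the limit on all 6 arrays, at 964 ± 89.3 units in the dark and 1151 ± 32.5 units after UV (SD, n = 3 each), so no fold is given.

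The middle run of the same block, from CHR4_JGVV8_136_T01 to CHR4_JGVV8_148_T01, had a probe set for each of its 13 numbers and 12 rises. Model 144 rose most, from 4285, 3521 and 4406 units to 6491, 8415 and 7431 units, a log2 change of 1.14 (SE 0.085), or 2.20-fold. The first member went from 26763 ± 1158 to 48758 ± 1610 units (SD, n = 3 each), a change of 0.92. Models 139, 140 and 141 rose by 0.99, 0.87 and 0.88 from dark means of 2939, 2604 and 4735 units. The member without a call, CHR4_JGVV8_143_T01, is read by 1 probe instead of 4 and was at background on every array, with 874, 713 and 1105 units in the dark and 866, 757 and 869 units after UV. Probes of a set disagreed more here than in any other run: the median coefficient of variation among the probes of a set was 0.609 in this run and 0.412 over all probe sets, and it was 1.39 in the dark for model 140. The other 610 models of block 8 outside its 3 runs had a median log2 change of -0.06, and 13.4% of them were called higher.

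**Figure D2:**
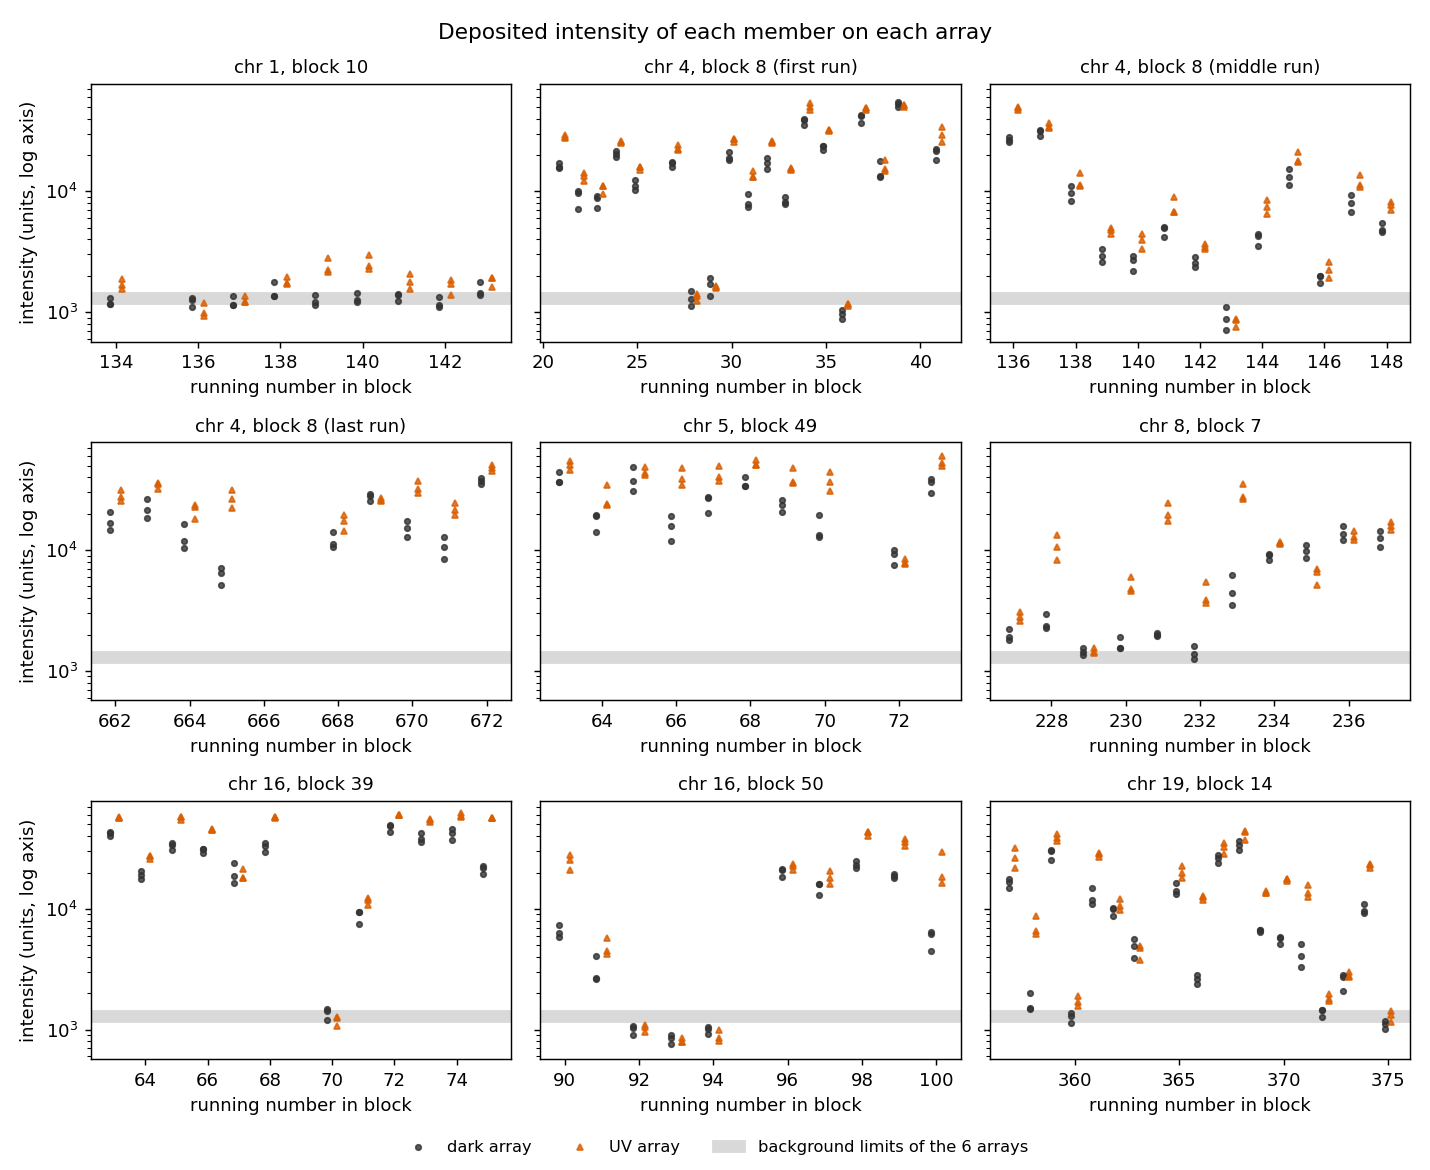
Deposited intensity (y axis, units, log axis) of each member on the 3 dark arrays (black circles) and the 3 UV arrays (orange triangles) against its running number (x axis), one panel per run, with the band of background limits from 1156 to 1434 units in grey. Block 39 of chromosome 16 crowds towards the top of the scale, and the run on chromosome 1 lies near the grey band.

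The run on chromosome 5, models 63 to 73 of block 49, consisted of bright members. All 10 were above background on all arrays, and 8 rose. Model 66 rose most, with 15973, 11862 and 19146 units in the dark and 47901, 38942 and 34345 units after UV, a log2 change of 1.48 (SE 0.17), or 2.79-fold. Model 70 followed with 1.41, from 15209 ± 3753 to 37357 ± 6706 units (SD, n = 3 each). The lowest change was that of model 72, at 9274, 7465 and 10105 units in the dark and 7761, 7725 and 8415 units after UV, whose groups overlapped (log2 change -0.01). Model 65 was not called either, with a change of 0.24 and 31009 to 48792 units on the dark arrays, a spread wider than the difference between the group means. UV replicate 1 gave the largest rise for 9 of the 10 members, and the run median was 0.93 on that array against 0.60 and 0.58 on UV replicates 2 and 3.

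Block 39 of chromosome 16, models 63 to 75, had the highest median dark level of the 9 runs, 31649 units, and the smallest SD of its median over the UV arrays. Of 12 members, 10 rose, and the same 10 were called in each of the 15 alternative settings. Model 75 rose most, with 22604, 19508 and 21871 units in the dark and 56517, 56970 and 56909 units after UV, a log2 change of 1.49 (SE 0.057), or 2.80-fold. For model 68 the mean went from 32672 to 57340 units, for model 65 from 33342 to 56759 units and for model 74 from 41957 to 59591 units. Starting from dark means that differed, these members reached UV means between 56759 and 59591 units.

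After UV, 7 members of this run averaged between 54273 and 60034 units, and the brightest probe set of any array stood at 63020 units. The median coefficient of variation among probes of a set was 0.288 on the dark arrays and 0.108 on the UV arrays of this run, against 0.407 and 0.417 over all probe sets. The part of the upper end of the scale in the size of these changes was not tested. The 2 members not called were model 67, at 19686 ± 3848 units in the dark and 19045 ± 1863 units after UV (SD, n = 3 each), and model 70. Model 70 read 1481, 1197 and 1438 units in the dark and 1077, 1268 and 1252 units after UV, around the background limit, with overlapping groups.

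The run on chromosome 1, from CHR1_JGVV10_134_T01 to CHR1_JGVV10_143_T01, was the dimmest. Of its 9 members 8 were called higher, but only the last was above background on all 6 arrays, and 2 of the 9 appear in the authors' value table. That last member read 1431, 1375 and 1778 units in the dark and 1918, 1901 and 1625 units after UV, so its deposited values overlapped. Its normalized log2 change was 0.64 (SE 0.17), called in 8 of 13 alternatives. Model 140 read 1269, 1210 and 1444 units in the dark and 2974, 2427 and 2272 units after UV. It was above the limit on 1 of 3 dark arrays and on all UV arrays, and its change ran from 1.03 to 2.16 over the settings.

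For 5 of these members the dark arrays give only a bound, taken from quantile-normalized values without background correction. It holds on that scale and can exceed the ratio of the unscaled deposited means, which for model 141 were 1344 units in the dark and 1791 units after UV. Model 139 was at least 1.92-fold higher after UV, model 141 at least 1.45-fold and model 142 at least 1.33-fold. The first member was at least 1.37-fold higher, and model 137, above the limit on 2 of 3 UV arrays, at least 1.04-fold. The one member without a call, CHR1_JGVV10_136_T01, was at background throughout, with 1256, 1098 and 1302 units in the dark and 925, 1197 and 980 units after UV. With the bounds in place of the fitted values and that member left out, the median of the run was 0.59 instead of 0.92. Without dark replicate 2, 5 members were called higher.

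Signal above background was as frequent among the members as on the whole array. Above the limit on all 6 arrays were 92 of 111 (82.9%), against 82.8% of all probe sets and 89.2% of all sets called higher. The members' median dark intensity was 9835 units, against 10349 units over all probe sets and 8131 units over all sets called higher. Of the 92 detected throughout, 81 were called higher, 1 lower and 10 not. Of the other 19, 7 were at background on all dark arrays and above it on at least 1 UV array, all of them called. A further 6 were at background on all arrays, 3 of them called higher, and the last 6 were above the limit on some of the dark arrays. Over the whole array, 4154 of 24460 sets detected throughout were called higher. So were 232 of 403 sets at background only in the dark and 135 of 2685 at background on all arrays. The members' calls in each state follow from the choice of the runs. Across the 92 members, a higher dark level went with a smaller log2 change (Spearman's rho = -0.41, across genes that share the same 6 arrays), and level and change share the dark measurement.

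The 3 UV arrays were not alike for these genes. UV replicate 1 gave the largest rise for 70 of the 111 members (63.1%), a share close to the 63.7% of all sets called higher and above the 41.1% of all probe sets. Runs differed in this: it was 9 of 10 members on chromosome 5 and 8 of 9 on chromosome 1, but 3 of 12 in block 39 of chromosome 16 and 3 of 9 in the last run of block 8. Among the dark arrays, replicate 1 had the lowest run median in 7 of the 9 runs and replicate 3 the highest in all 9.

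**Figure D3:**
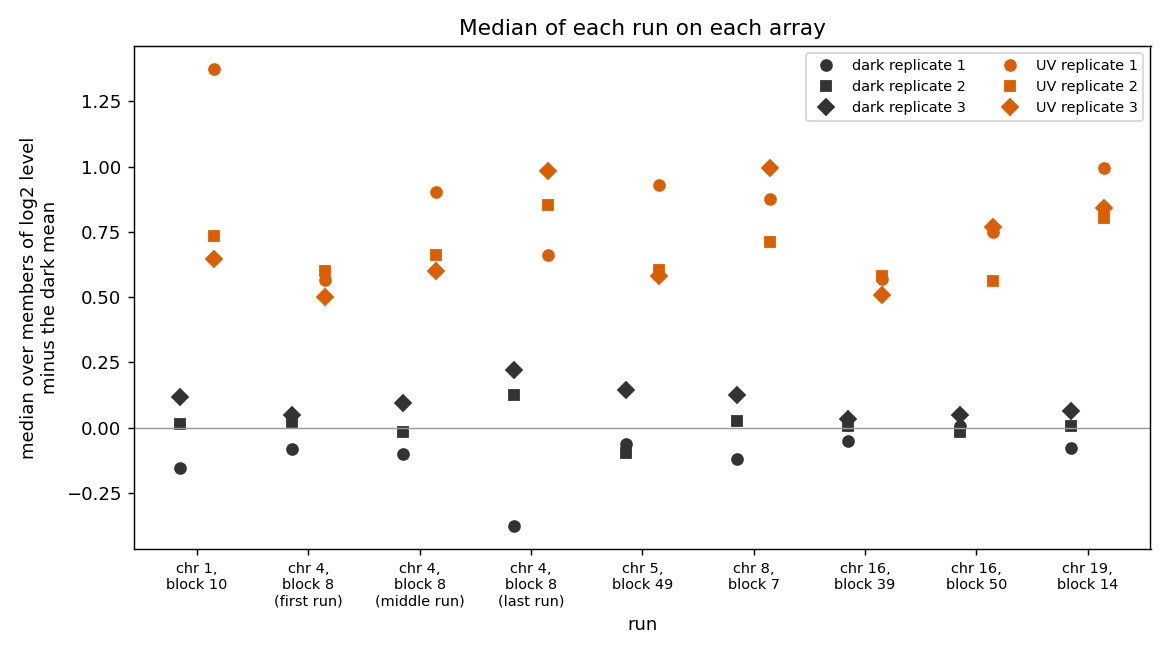
Median over the members of a run of the log2 level on each array minus the dark mean (y axis), for the 9 runs (x axis), with dark arrays in black and UV arrays in orange and the replicate number as the symbol. In every run the UV arrays lie above the dark arrays; chromosome 1 has the widest spread, with 1.37 on UV replicate 1 and 0.64 on UV replicate 3.

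Deviations of the arrays from their own group mean hold no difference between UV and dark, although the calls behind the choice of runs also used this spread. Over pairs of members of the same run, these deviations correlated at a mean r of 0.25 (685 pairs, 6 arrays), and over pairs from different runs at 0.22 (5420 pairs). All pairs of probe sets on the array averaged 0.00093, all pairs among sets called higher averaged 0.16, and adjacent models outside the runs averaged 0.09. Adjacent members within the runs averaged 0.31 (94 pairs). Pairs share the same 6 arrays, and these means are a description with no test.

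The runs were unequal in this measure. Within the last run of block 8 on chromosome 4 the mean r was 0.47, while with the other runs it lay between 0.05 and 0.28. Within the run on chromosome 5 it was 0.56, but members of that run also correlated with those of chromosome 1 at 0.52. The runs of block 39 and block 50 on chromosome 16 gave 0.09 and -0.05 within themselves over all members, and 0.15 and 0.22 over members above background on all arrays. With the 92 members above background only, the means were 0.29 within and 0.27 between runs. All pairs among sets called higher and above background on all arrays averaged 0.17.

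**Figure D4:**
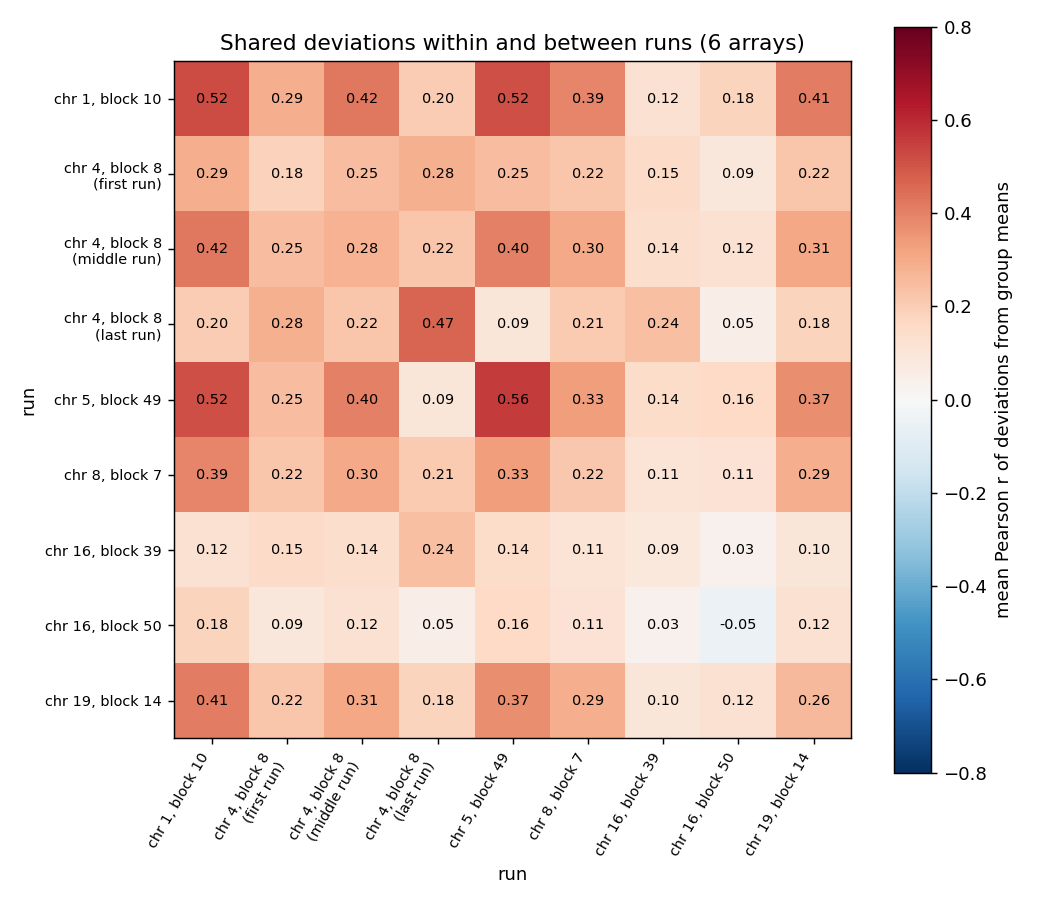
Mean Pearson correlation, over pairs of members, of the deviations of the 6 arrays from their group means, for each pair of runs (both axes list the 9 runs; the diagonal gives pairs within a run; the colour scale runs from -0.8 to 0.8). The last run of block 8 on chromosome 4 shows 0.47 on the diagonal against 0.05 to 0.28 elsewhere in its row, whereas chromosomes 1 and 5 share 0.52 with each other.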

How the data were processed

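Skin RNA of 3 dark and 3 UV samples was measured on one-colour NimbleGen arrays with Cy3, per the labels. The deposited files give, per the file headers, a mean perfect-match intensity per probe set on a linear scale and the coefficient of variation of its probes, a ratio. The authors' deposited value table holds log10 values whose baseline is unstated. The image software, genome build and annotation release were not given in the sources used here.

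Background was corrected by normexp with an offset of 50, followed by quantile normalization of log2 values (limma 3.58.1, R 4.3.3). The 6 arrays entered 1 limma fit (lmFit, eBayes) over 29549 probe sets without covariates, and its two-sided p-values were adjusted by Benjamini-Hochberg and called at 0.05. The fit was tested on simulated data. Replicates are separate clusters per the labels, and the number of arrays limits the precision. The background limit, the mean plus 2 SD of random probes on each array, was chosen after the data were seen. Lower bounds use quantile-normalized values without background correction: the UV mean against the mean of, per dark array, the higher of the member's signal and the lowest signal above background.

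The members, runs and lists were chosen with earlier results of these data known. Named by rule were, per run, the largest rise among members above background on all arrays, the lowest change and every member not called. Other members described were picked after their values were seen. Alternatives covered background correction, scaling, the value table, brightness filters, the variance model, a replicate block and each array left out.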

Additional observations from a re-analysis of the deposited data

How the results depend on the processing

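Of the 95 members called higher, 70 were called higher in each of the 15 alternatives in which they were tested, and none of the 96 called members changed sign in any. The count over all runs lay between 77 and 93 with other processing and between 78 and 89 with 1 array left out. The members' median log2 change of 0.69 became 0.58 without background correction and 0.56 without scaling between arrays, where the median of all probe sets was -0.17 and 2939 probe sets were called higher on the whole array instead of 4656. With 1 array left out, the members' median lay between 0.59, without dark replicate 1, and 0.76, without dark replicate 3. On chromosome 1, 5 members were called higher without scaling, 5 with the replicate block, 2 of 2 tested in the authors' value table and 1 of 1 tested above background on all arrays; none lay above the 25th percentile of brightness. The counts in the value table and above background follow from fewer members tested. In block 50 of chromosome 16, 5 were called higher without scaling. With 1 array left out the counts were 5 to 8 on chromosome 1 (5 without dark replicate 2), 5 to 8 in the last run of block 8 on chromosome 4 (5 without UV replicate 2 or 3) and 5 to 7 in block 50 of chromosome 16 (5 without dark replicate 2); the cause was not tested. Run medians stayed above 0 in all settings, between 0.47 and 1.40. Deviations of same-numbered dark and UV arrays from their group means correlated at r = -0.044, -0.059 and -0.033. Of the 3 dark arrays, 0 correlated best with the UV array of its own number. The replicate block left 84 members called higher. A slide block was not run, since the arrays share 1 slide number. For dim members, background sets the limit on what fold can be read.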
